A study of Homo sapiens with 6 samples.

Results

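Small nucleolar RNA host genes and 4 long noncoding RNAs were measured in HCT8, an established human colorectal cancer cell line grown in DMEM with fetal bovine serum. The members were every gene of the counts table whose symbol begins with SNHG, plus GAS5, ZFAS1, EPB41L4A-AS1 and DANCR (32 host genes in all), and the long RNAs MEG3, NEAT1, MALAT1 and NORAD. These 36 genes were picked out of 60664 in the table by name, by a rule that uses no measured value. Control cells carried a control plasmid and are labelled wild type (3 libraries). The other cells carried a plasmid for overexpression of GPT1, the cytosolic alanine aminotransferase encoded by GPT (3 libraries, called GPT1 libraries here). The study asked which signalling GPT1 regulates. The labels do not say how long after transfection the cells were taken, which promoter drives the plasmid, or whether the cells were a pool or a clone. Libraries were of mRNA, prepared from Trizol-extracted total RNA.

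Small nucleolar RNAs (snoRNAs) guide the chemical modification of ribosomal and spliceosomal RNA, the C/D box class 2′-O-methylation and the H/ACA box class pseudouridylation. In humans most of them are cut from introns, and the SNHG genes are hosts whose spliced exons code for little or no protein. Many host transcripts begin with a run of pyrimidines that ties their translation to nutrient and growth signals, and many of the spliced RNAs are degraded by nonsense-mediated decay when they are translated. The long RNAs served as a contrast. MALAT1 lies in nuclear speckles, NEAT1 is the scaffold of paraspeckles, MEG3 is an imprinted and largely nuclear RNA, and NORAD, which binds the Pumilio proteins, is mainly cytoplasmic.

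The plasmid's gene was recovered as labelled. GPT had 9, 14 and 3 counts in the control libraries and 105529, 96886 and 106063 in the GPT1 libraries. Total counts ran from 21255655 (control replicate 3) to 32487217 (control replicate 1). Epithelial markers were present, but 7 of the 8 tested, of 10 listed, fell in the GPT1 libraries. Of all tested genes 14.6% were lower and 10.5% higher. The epithelial marker CDX2 did not pass (log2 fold change 0.12, edgeR adjusted p = 0.448). The summed level of the 10 was 882 to 1036 CPM (counts scaled to a common library size) in controls and 561 to 632 in GPT1 libraries. Neural markers summed to 423 to 508 CPM in controls, mostly NEFM and NEFL, and to 199.96 to 206 in GPT1 libraries, with 3 of 5 tested lower. Fibroblast markers (1 of 4 tested higher) summed to 20.5 to 25.7 CPM over all libraries, and leukocyte markers (0 of 2) to 1.71 to 2.59. FAP, THY1 and CD3E were at 0 in every library. No endothelial marker had enough counts to be tested, and their sum was 0.159 to 0.277 CPM in controls and 0.386 to 0.951 in GPT1 libraries. Whether any of these markers had a part in the results for the host genes was not tested.

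Of the 36 genes, 26 host genes and 3 long RNAs had enough counts for a test, made with edgeR's quasi-likelihood test and p-values adjusted by Benjamini-Hochberg over all 17638 tested genes (threshold 0.05). Among the host genes 5 were higher in the GPT1 libraries (SNHG30, SNHG10, SNHG20, SNHG6 and DANCR), 2 were lower (SNHG1 and SNHG18) and 19 did not pass. That is 26.9% of the tested host genes, where 25.1% of all tested genes passed (10.5% higher, 14.6% lower), so the share of host genes that changed was close to the background. Their median log2 fold change was 0.15, beside -0.02 over all tested genes. One of the 3 long RNAs, MALAT1, fell, and the other two did not pass. The median of the 3 was -0.38. In bulk libraries, fewer cells with an RNA and less of it per cell cannot be told apart.

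**Figure D1:**
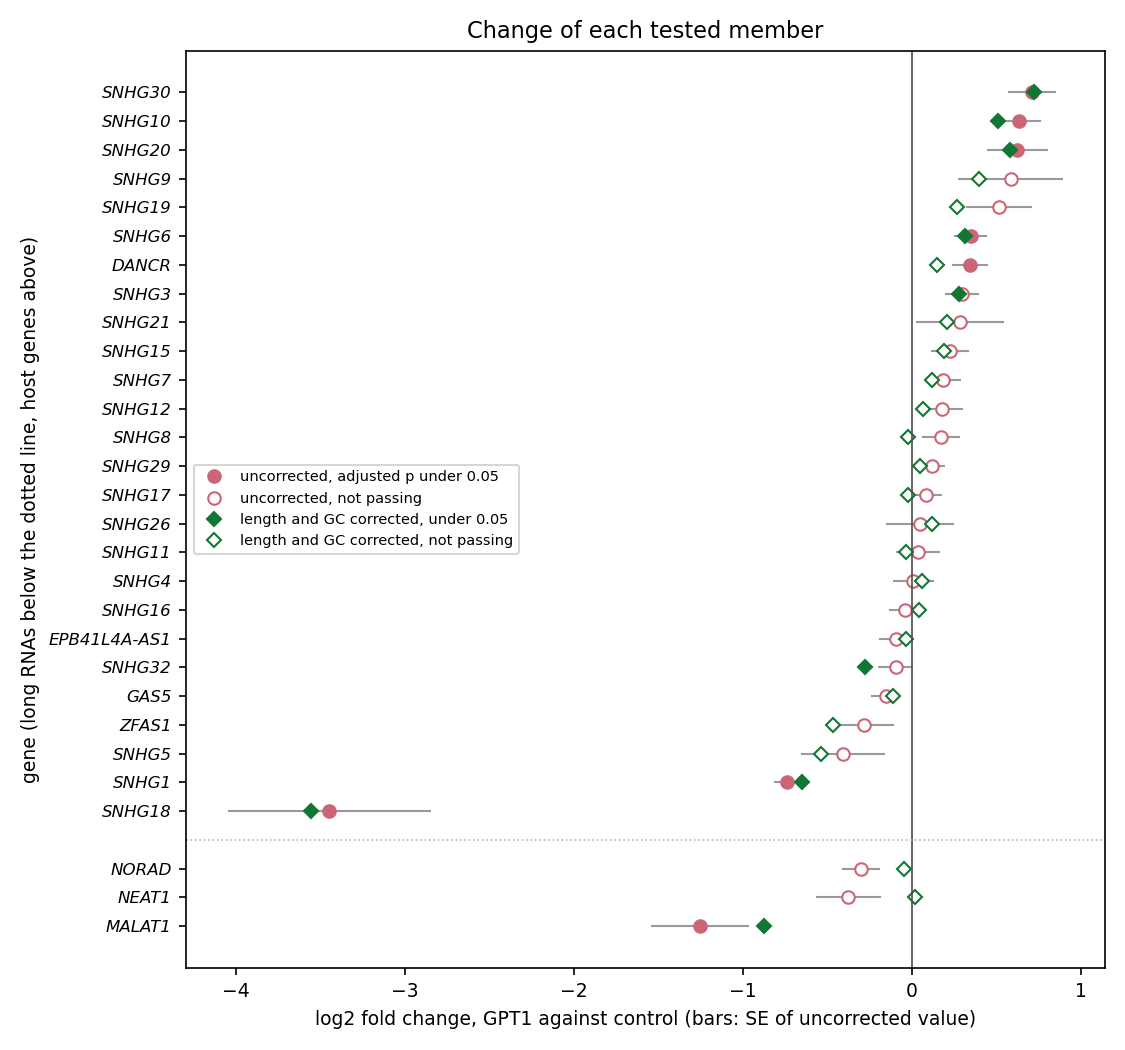
Log2 fold change (GPT1 against control) of each of the 29 tested members, before (circles, bars are 1 SE) and after (diamonds) correction for transcript length and GC content, with filled symbols for an adjusted p under 0.05. SNHG18, SNHG1 and MALAT1 lie lowest on both scales, most host genes lie near 0, and NEAT1 and NORAD move to about 0 after the correction.

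Because the pyrimidine run at the transcript start is the best-known sequence feature of this class, the starts were read from RefSeq promoter windows (GRCh38.p14, 250 bases before to 50 bases after the annotated start), which matched 31 of the 36 members. The search was for a C followed by at least 4 more C or T bases, beginning within 10 bases of the start on the transcribed strand. It was found in 17 of 28 host windows (60.7%) and in 33.5% of all 35116 windows. With a C as the first base itself and at least 4 more C or T bases after it the shares were 25.0% (7 of 28) and 4.07%. The following 50 bases begin 20 before the start and show hosts with a run beside SNHG1 and NORAD, which had none by this rule. The run is in capitals and each is read 5′ to 3′ on the gene's strand.
SNHG5: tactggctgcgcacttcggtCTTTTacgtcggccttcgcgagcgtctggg
ZFAS1: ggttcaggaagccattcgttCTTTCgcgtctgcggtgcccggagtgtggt
SNHG12: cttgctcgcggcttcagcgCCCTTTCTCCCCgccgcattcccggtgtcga
SNHG18: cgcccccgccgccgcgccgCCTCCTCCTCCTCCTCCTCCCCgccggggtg
SNHG1: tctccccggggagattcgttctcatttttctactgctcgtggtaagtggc
NORAD: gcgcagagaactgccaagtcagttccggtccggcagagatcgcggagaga
These lie at chr6:85678704-85678753 (minus strand), chr20:49278622-49278671 (plus), chr1:28581844-28581893 (minus), chr5:9546180-9546229 (plus), chr11:62855856-62855905 (minus) and chr20:36050931-36050980 (minus). SNHG5 and ZFAS1 carry short runs of 5 bases, while those of SNHG12 and SNHG18 are 12 and 22 bases long. From its annotated start SNHG1 reads ctcatttttct, rich in pyrimidines but broken by an a, so it did not meet the rule. A run, found or missing, holds only for the RefSeq start. The GAS5 window (chr1:173869016-173869065), for one, lies outside the GENCODE 29 gene (173863900-173868882). So does the SNHG14 window, which has a run (chr15:24823588-24823637, gene 24978583-25419462). The SNHG12 window lies inside its gene (28578538-28583132) and not at its GENCODE 29 start. Genes with and without a run were found among those that changed: of those with a window, SNHG18 and DANCR have one and SNHG1, SNHG10, SNHG20 and SNHG30 do not by this rule. Of the other motifs searched, the palindrome CACGTG (the E-box) was found in 2 of 28 host windows (7.14%; SNHG7 and SNHG30) against 7.26% of all windows, and the palindrome TGACGTCA (the cAMP response element) in 0 of 28 against 1.85%. Its shorter core TGACGT, searched on both strands and contained in the full element, was found in 2 of 28 (7.14%; SNHG21 and SNHG30) against 7.98%. A match describes the letters only.

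SNHG1 fell with the smallest adjusted p-value of all members. The gene (ENSG00000255717, chr11:62851988-62855914, minus strand, GENCODE 29) holds 8 C/D box snoRNAs, SNORD22 and SNORD25 to SNORD31. Its level was 258, 279 and 279.9 CPM in the control libraries and 173, 163 and 153 in the GPT1 libraries. Every GPT1 library lay far below every control library. The means were 272 ± 12.5 and 163 ± 9.85 CPM (SD, n = 3 each), and the log2 fold change was -0.74 ± 0.08 (SE; edgeR adjusted p = 0.00031). Without each library in turn the change stayed between -0.78 and -0.70, and corrected for length and GC content it was -0.65.

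GAS5 and SNHG29, the other abundant hosts, did not follow it. GAS5, a growth-arrest RNA, holds 11 snoRNAs, the most of any tested host, 10 of them C/D box. It was at 399, 448 and 475 CPM in controls and 418, 385 and 385 in GPT1 libraries. The groups overlapped, and the difference did not pass (-0.16 ± 0.09, adjusted p = 0.205). SNHG29, named LRRC75A-AS1 in GENCODE 29 and host of SNORD49A, SNORD49B and SNORD65, was at 427, 435 and 415 CPM in controls and 492, 439 and 456 in GPT1 libraries. Its groups were just apart, with 0.12 ± 0.08 and an adjusted p of 0.267. Together SNHG1, GAS5 and SNHG29 made up 60.7%, 61.0% and 63.3% of all host gene CPM in the control libraries and 56.5%, 56.6% and 56.2% in the GPT1 libraries. That share was lower in every GPT1 library, but it includes the fall of SNHG1 and is not a separate result. The summed CPM of the 32 host genes overlapped between groups (1786, 1905 and 1848 in controls, 1918, 1742 and 1771 in GPT1 libraries).

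**Figure D2:**
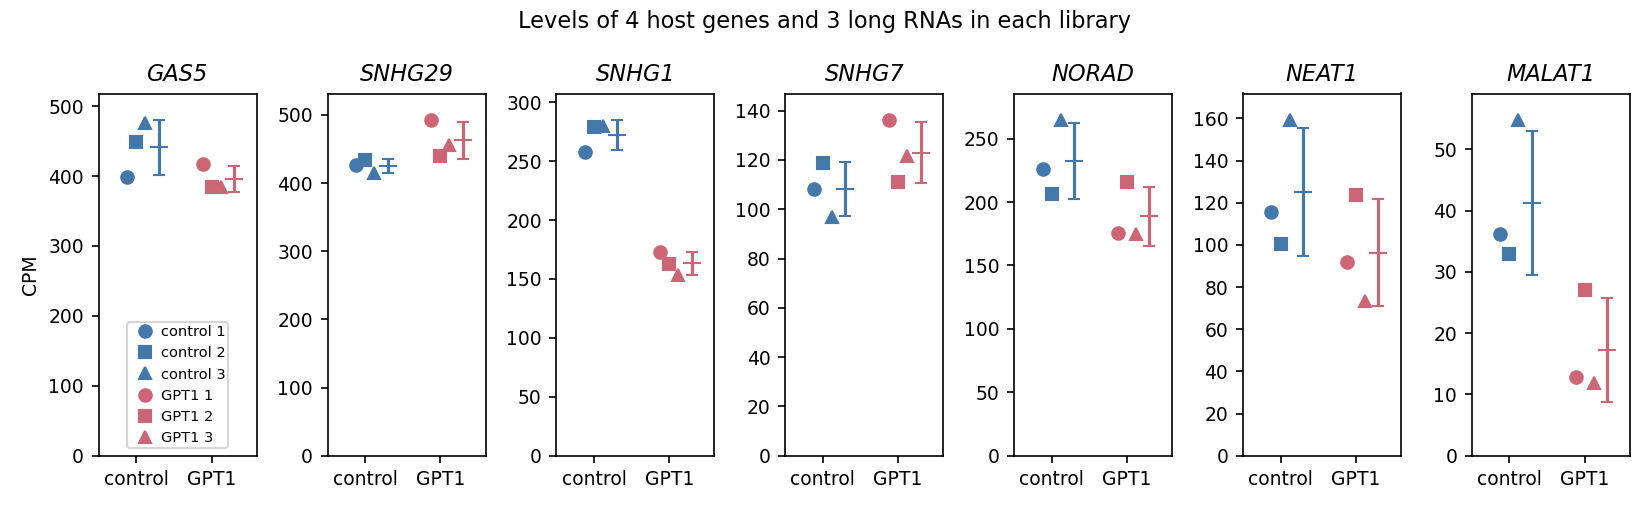
Level in CPM, each panel from 0, of 4 abundant host genes and 3 long RNAs in each library, with the group mean and SD beside the points. The SNHG1 groups are far apart (257.7 CPM or more against 173.2 or less), GAS5, SNHG7, NORAD and NEAT1 overlap, and MALAT1 in GPT1 replicate 2 lies between the other GPT1 libraries and the controls.

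SNHG18, host of the C/D box snoRNA SNORD123, was near the detection limit. It had 19, 12 and 22 counts in controls and 1, 2 and 2 in GPT1 libraries. Few as these counts are, every GPT1 library lay below every control. The gene passed the expression filter only through the control libraries, which favoured a fall. The lack of overlap and the values below therefore describe the gene and are not independent support. Summed over the libraries and scaled by depth, the controls had 11.4 times the GPT1 level. Counting error alone gives this ratio a 95% range, by the exact method, of 4.58 to 36.5. The fitted log2 fold change was -3.45 ± 0.60 (adjusted p = 0.0040), from means of 0.660 ± 0.325 and 0.0544 ± 0.0192 CPM.

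Among the hosts that rose, SNHG30 and SNHG10 had the smallest adjusted p-values. SNHG30 (LINC02001 in GENCODE 29, host of SNORD7) was at 14.5, 13.1 and 10.3 CPM in controls and 22.3, 19.3 and 20.7 in GPT1 libraries, a log2 fold change of 0.71 ± 0.14 (adjusted p = 0.0078). SNHG10, which holds the Cajal body RNA SCARNA13, was at 6.02, 5.46 and 5.18 CPM in controls and 9.01, 8.59 and 8.37 in GPT1 libraries (0.64 ± 0.13, adjusted p = 0.0078). In both genes all GPT1 libraries lay above all controls. These 2 genes, with SNHG1 and SNHG18, passed in every alternative that tested them. SNHG20, host of SCARNA16, was at 13.97, 16.6 and 9.43 CPM in controls and 22.4, 19.05 and 20.5 in GPT1 libraries (0.62 ± 0.18, adjusted p = 0.0297), again with no overlap.

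SNHG6 and DANCR rose by less. SNHG6, host of SNORD87, was at 43.9, 50.04 and 46.7 CPM in controls and 63.1, 56.5 and 59.3 in GPT1 libraries (0.35 ± 0.10, adjusted p = 0.0249). DANCR, an RNA known for holding back differentiation and host of SNORA26, was at 45.1, 47.5 and 37.9 CPM in controls and 56.9, 54.4 and 54.6 in GPT1 libraries (0.34 ± 0.10, adjusted p = 0.0357). Neither gene's groups overlapped. The calls of the weaker risers were lost when any of 3 libraries was left out, while the changes kept their direction (0.45 to 0.81 for SNHG20, 0.31 to 0.41 for SNHG6 and 0.27 to 0.41 for DANCR over all omissions). Leaving out the first control, or the first or the third GPT1 library, in that order, the adjusted p was 0.0642, 0.104 and 0.0864 for SNHG20, 0.0865, 0.108 and 0.0957 for SNHG6, and 0.0682, 0.122 and 0.114 for DANCR, and 2 hosts were then higher each time. Correction for length and GC content took DANCR to 0.15 (adjusted p = 0.106).

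The 19 hosts that did not pass ranged from SNHG3, just short of passing, to genes with a change near 0. SNHG3, host of SNORA73A and SNORA73B, was at 41.7, 45.4 and 41.9 CPM in controls and 56.7, 54.2 and 47.7 in GPT1 libraries (0.30 ± 0.10, adjusted p = 0.0508). Its groups did not overlap, and it passed after correction for length and GC content (0.28, adjusted p = 0.0120). SNHG19 had 0.51 ± 0.19 (adjusted p = 0.0741) and SNHG9 0.58 ± 0.31 (adjusted p = 0.184), both with overlapping groups at 6.73 CPM or less. SNHG15 (81.3 ± 13.1 CPM in controls, 95.2 ± 4.65 in GPT1 libraries) and SNHG7 (108 ± 10.9 and 123 ± 12.5) overlapped too. Of the 19, 12 had a log2 fold change of at most 0.2 in either direction, among them SNHG16 (-0.04), SNHG4 (0.01), SNHG11 (0.04), SNHG17 (0.09), EPB41L4A-AS1 (-0.09) and SNHG32 (-0.09). SNHG12 (0.18), SNHG8 (0.17), SNHG26 (0.05) and SNHG21 (0.28) did not pass either. SNHG5, host of SNORD50A and SNORD50B, was at 2.41, 1.81 and 3.65 CPM in controls and 1.77, 2.16 and 1.90 in GPT1 libraries (-0.41 ± 0.25, adjusted p = 0.244). ZFAS1, a ribosome-associated antisense RNA that holds the SNORD12 family, was at 8.74, 8.48 and 13.0 CPM in controls and 8.66, 8.98 and 6.997 in GPT1 libraries (-0.28 ± 0.18, adjusted p = 0.261). For both, control replicate 3 was the highest library. At an unadjusted p under 0.05 there were 9 hosts (34.6%, beside 40.1% of all tested genes), and 10 of 26 had groups that did not overlap (38.5%; 8 higher, 2 lower), beside 43.4% of all tested genes (21.2% higher, 22.2% lower).

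The 6 hosts without a test were SNHG14, SNHG22, SNHG25, SNHG27, SNHG28 and SNHG31. SNHG27 and SNHG28 had 0 counts in all libraries, where 3 counts would be 0.0916 to 0.139 CPM. The others had at most 36 counts over all 6 libraries. SNHG14, the imprinted host with by far the most snoRNAs (84 of the 151 that RefSeq places inside the 32 hosts), had 2 counts, and MEG3 had 1.

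MALAT1 was the only long RNA that fell. It was at 36.3, 32.9 and 54.8 CPM in controls and 12.9, 27.0 and 11.9 in GPT1 libraries. The groups did not overlap, but GPT1 replicate 2 stood well above the other GPT1 libraries and control replicate 3 stood above the other controls. The log2 fold change was -1.26 ± 0.29 (adjusted p = 0.0138). The call was lost without GPT1 replicate 1 (-1.08, adjusted p = 0.0569) or GPT1 replicate 3 (-1.05, adjusted p = 0.0573). With control replicate 3 and GPT1 replicate 2 both left out, a choice made after seeing the data, it was -1.46 (adjusted p = 2.09e-06).

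NEAT1 and NORAD did not pass. NEAT1 was at 115, 101 and 159 CPM in controls and 91.9, 123 and 73.4 in GPT1 libraries (-0.38 ± 0.19, adjusted p = 0.170). NORAD was at 226, 206 and 264 CPM in controls and 175, 216 and 175 in GPT1 libraries (-0.30 ± 0.11, adjusted p = 0.0735). For all 3 long RNAs control replicate 3 was the highest control and GPT1 replicate 2 the highest GPT1 library. Both genes passed without GPT1 replicate 2 (NEAT1 -0.58, adjusted p = 0.0362; NORAD -0.39, adjusted p = 0.0341), and NORAD also without control replicate 2 (-0.38, adjusted p = 0.0320). With control replicate 3 and GPT1 replicate 2 left out together they were at -0.36 (adjusted p = 0.0188) and -0.28 (adjusted p = 0.0127).

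The same libraries stood apart in base composition. Each library's deviation from the all-library mean correlated with transcript GC content, as Spearman's rho over genes, at -0.03, 0.08 and -0.52 in controls and 0.47, -0.12 and 0.27 in GPT1 libraries, so control replicate 3 and GPT1 replicate 2 were the lowest of their groups. Transcript length followed the groups, at 0.29, 0.06 and 0.30 in controls and -0.38, -0.14 and -0.24 in GPT1 libraries. Across 17436 genes, which are not independent replicates, the log2 fold change had a rho of -0.33 with length and 0.31 with GC content. The summed CPM of the long RNAs was 378, 339.6 and 478 in controls and 280.1, 366 and 261 in GPT1 libraries. The host sum was 4.72, 5.61 and 3.86 times that sum in controls and 6.85, 4.76 and 6.80 times in GPT1 libraries. The ratio overlapped between groups, with GPT1 replicate 2 among the controls.

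**Figure D3:**
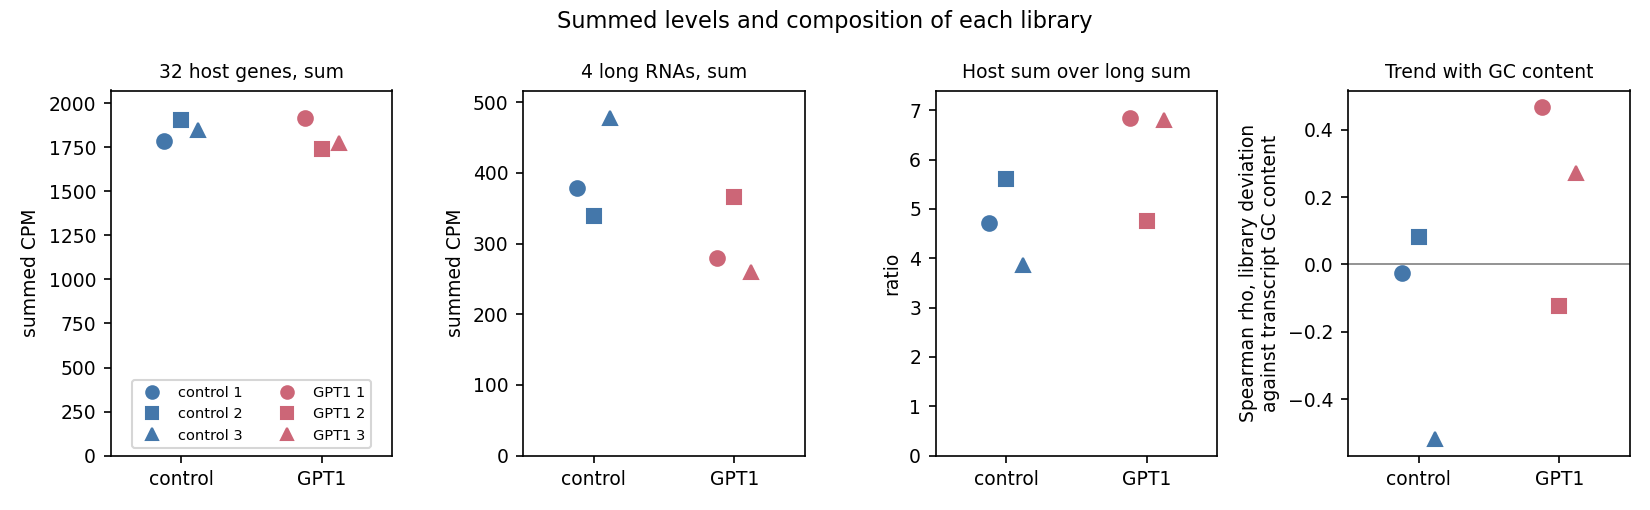
Summed CPM of the host genes and of the long RNAs, the ratio of these sums, and the Spearman correlation of each library's deviation with transcript GC content, 1 point per library. Control replicate 3 has the highest long RNA sum (478) and the lowest GC trend (-0.52) of all, and GPT1 replicate 2 (366 and -0.12) lies within the range of the controls in both.

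Host genes and long RNAs also differ in length. The longest annotated transcripts of the tested hosts were 342 to 3607 bases (median 1680), and those of the 3 tested long RNAs 5339 to 22743. Among all tested genes with a longest transcript under 4000 bases the median log2 fold change was 0.07, with 13.1% higher and 8.81% lower. Over 5000 bases it was -0.24, with 5.40% higher and 28.9% lower. The host median of 0.15 and the long RNA median of -0.38 therefore each lay on the side of their own length class. Corrected for length and GC content, the medians were 0.06 (hosts), -0.04 (long RNAs) and 0.03 (all tested genes). The correction was fitted to each library without regard to group, and length followed the groups. It therefore also removes any difference between the groups that runs with length. Such a difference and a technical trend cannot be told apart here. NEAT1 was then at 0.02 (adjusted p = 0.923) and NORAD at -0.04 (adjusted p = 0.604), while MALAT1 was still lower at -0.87 (adjusted p = 0.0033). On this scale 5 hosts were higher and 3 lower, where 34.5% of all genes passed (19.8% higher, 14.8% lower): SNHG3 joined those higher, DANCR left them, and SNHG32, named C6orf48 in GENCODE 29, joined those lower (-0.28, adjusted p = 0.0147).

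**Figure D4:**
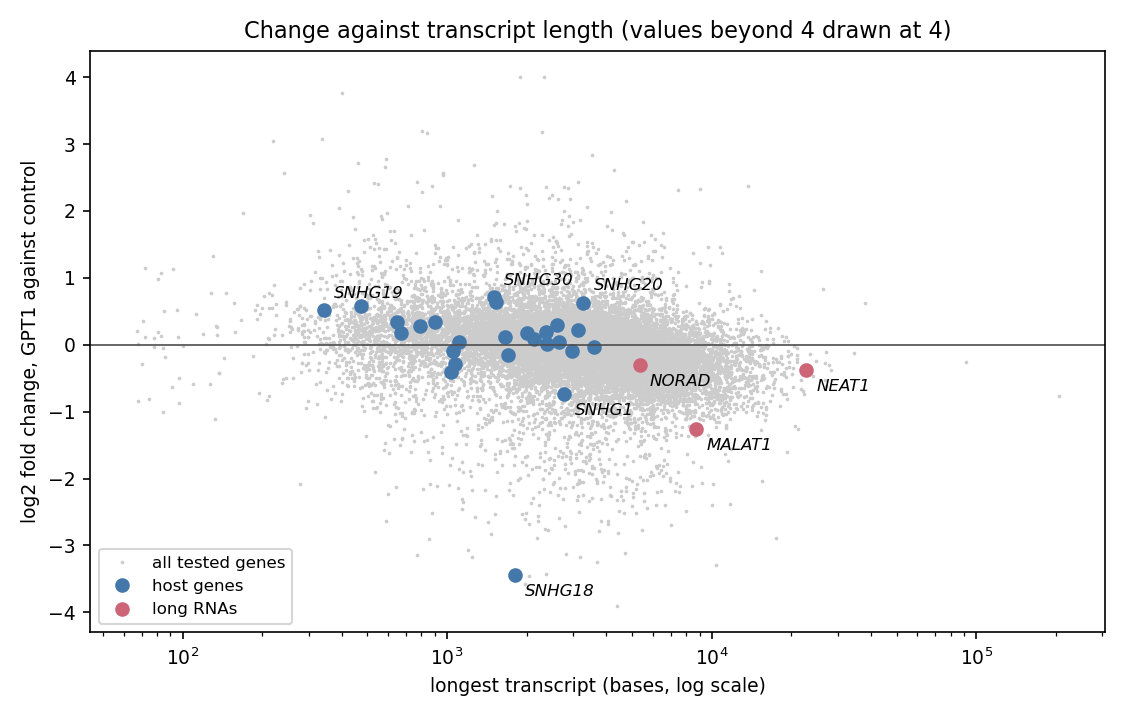
Log2 fold change against the longest annotated transcript (log scale) for all tested genes (grey), host genes (blue) and long RNAs (red). Genes over 5000 bases have a median of -0.24, and the 3 long RNAs lie in that range, while all tested hosts are shorter than 4000 bases.

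Per kilobase of exon (the union of GENCODE 29 exons), levels in the controls were led by GAS5 at 121 ± 10.7 CPM per kilobase and SNHG29 at 113 ± 2.67, which did not differ beyond their spread. SNHG1 followed at 72.5 ± 3.32, NORAD at 43.5 ± 5.55 and SNHG6 at 37.6 ± 2.48. NEAT1 (5.49 ± 1.34) and MALAT1 (4.68 ± 1.33) ranked 18 and 20 of the 29 tested members, and SNHG18 was last (0.338 ± 0.167). The order depends on the length used: per kilobase of the longest transcript NORAD (43.5) came below SNHG6 (72.3), SNHG32 (54.4), DANCR (48.1), SNHG8 (46.0) and SNHG7 (45.9), and GAS5 was at 259.7. In the GPT1 libraries the first were SNHG29 (123 ± 7.20), GAS5 (109 ± 5.24), SNHG6 (47.8 ± 2.67) and SNHG1 (43.4 ± 2.62). NEAT1 was at 4.23 ± 1.11 and MALAT1 at 1.96 ± 0.958. These levels hold for counted reads only. How fully mRNA libraries capture each of these RNAs, MALAT1 and NEAT1 included, was not tested. Which isoforms were present was not tested either, and the length correction too used the longest annotated transcript. Exons of other annotated genes overlap those of MALAT1 (396 bases, other strand), NEAT1 (159, same strand) and ZFAS1 (198, same strand), among others. How reads in shared bases were counted is not known, and whether reads were lost there was not tested.

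The snoRNAs themselves were hardly counted. RefSeq places at least 1 snoRNA inside 31 of the 32 hosts, 13 with C/D box only and 11 with H/ACA box only. The table had 136 entries for 133 of these snoRNAs, and 10 of the entries had any count, 386 counts in all. SNORA71B in SNHG17 had 32, 21 and 26 counts in controls and 35, 27 and 23 in GPT1 libraries (-0.02 ± 0.30, adjusted p = 0.972). SNORA73B in SNHG3 had 11, 14 and 13 counts in controls and 28, 22 and 19 in GPT1 libraries (0.73 ± 0.33, adjusted p = 0.125). SNORD104 in SNHG25 had 14, 6 and 6 counts against 9, 8 and 16, and SNORA13 in EPB41L4A-AS1 6, 4 and 5 against 5, 1 and 4, too few for a test. No snoRNA of GAS5 was matched to an entry. All 7 entries in SNHG1 were at 0, which says nothing of their level in cells: mRNA libraries are not made to capture such short RNAs.

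Several hosts share a start region with a protein-coding gene on the other strand, and not all pairs moved alike. SLC3A2, the heavy chain of the CD98 amino acid transporters, starts 188 bases from SNHG1. It rose from 486 ± 52.8 to 648 ± 43.9 CPM (0.41 ± 0.10, adjusted p = 0.0143), against the fall of SNHG1. SEMA5A, a semaphorin that starts 125 bases from SNHG18, fell with it, from 0.928 ± 0.256 to 0.174 ± 0.0508 CPM (-2.37 ± 0.40, adjusted p = 0.0034). Both SEMA5A and SNHG18 passed the expression filter only through the control libraries. ZBTB37 starts 800 bases from the start of GAS5 and overlaps that gene on the other strand, with 0 shared exon bases. ZBTB37 fell (-0.74 ± 0.19, adjusted p = 0.0195), though the value was -0.22 after correction for length and GC content. The partners of SNHG19 (TRAF7, -0.03), SNHG9 (RPS2, -0.11) and ZFAS1 (ZNFX1, -0.20) did not pass. Where exons of opposite strands overlap, reads cannot be told apart, since no source states whether counting used the strand. This touches, among others, SNHG10 (GLRX5, 0.21, not passing), SNHG29 (LRRC75A, lower at -0.71) and GAS5 (GAS5-AS1, lower at -1.10). SNHG6 overlaps exons of MCMDC2 on the other strand (365 bases). SNHG20 shares exon bases with SEC14L1 on the same strand (-0.12, not passing). SNHG3 does so with RCC1 (242 bases), which was at 372 CPM in controls (0.09, not passing), and SNHG4 with MATR3 (626 bases).

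**Figure D5:**
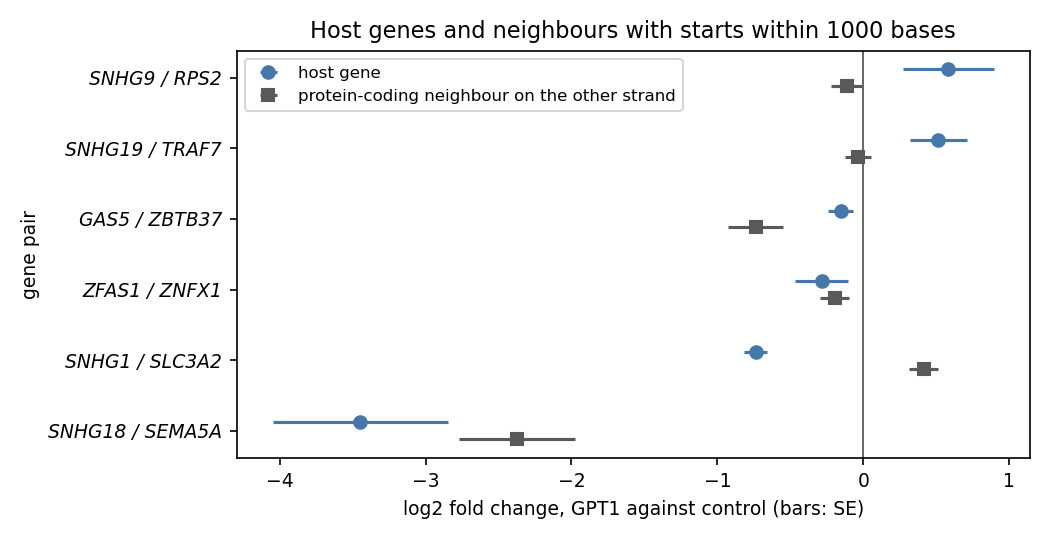
Log2 fold change (GPT1 against control, bars are 1 SE) of 6 host genes (circles) and the protein-coding genes that start within 1000 bases on the other strand (squares). SNHG1 (-0.74) and SLC3A2 (0.41) lie on opposite sides of 0, while SNHG18 (-3.45) and SEMA5A (-2.37) are both far below it.

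Protein-coding snoRNA hosts, many of them ribosomal protein genes, changed about as often as genes in general: 9 of 50 were higher and 3 lower (24.0%, beside 25.1% of all tested genes; median 0.09). HSPA8, a constitutive chaperone, rose from 628 ± 36.9 to 1077 ± 21.5 CPM (0.78 ± 0.08), and RPS12 (0.74), PPAN (0.99) and RPS13 (0.45; 0.24 after correction for length and GC content) rose too. Of 18 proteins that form or assemble snoRNPs 3 were higher and 1 lower (22.2%), with a median of 0.00: GAR1 (0.42) and NHP2 (0.31) of the H/ACA particle and NOP56 (0.30) of the C/D particle rose, and the assembly factor RPAP3 fell (-0.59). The correction ended the calls of NHP2 (0.12, adjusted p = 0.126) and RPAP3 (-0.20, adjusted p = 0.0797). Of 14 nonsense-mediated decay factors 6 were higher and 4 lower (71.4%; median 0.24). The kinase SMG1 fell from 150.5 ± 36.6 to 79.2 ± 15.2 CPM (-0.92 ± 0.18; -0.53 after correction), while the exon junction proteins RBM8A (0.37) and EIF4A3 (0.36) and the SMG1 regulator SMG8 (0.43) rose. Of 14 paraspeckle and speckle proteins 5 were higher and none lower (35.7%; median 0.17), with SFPQ at 238 ± 42.1 CPM in controls and 362 ± 5.13 in GPT1 libraries (0.61 ± 0.11), beside SRSF2 (0.45), RBM14 (0.65) and SRSF1 (0.42). The NORAD partner PUM2 fell (-0.50, adjusted p = 0.0462; -0.18 after correction, adjusted p = 0.0952), and the partner RBMX did not pass (0.18, adjusted p = 0.0885) but did after correction (0.48, adjusted p = 0.0017). Of 23 other long noncoding RNAs none was higher and 5 were lower (21.7%), with a median of -0.30 that was -0.06 after correction. H19 (-1.87), LINC00511 (-0.82), OIP5-AS1 (-0.53) and GABPB1-AS1 (-0.62) were among them. H19 was at 1.87 ± 0.663 CPM in controls and 0.501 ± 0.330 in GPT1 libraries. It passed the expression filter only through the control libraries, which favoured a fall. After correction OIP5-AS1 and GABPB1-AS1 were at -0.08 (adjusted p = 0.360) and -0.20 (adjusted p = 0.209).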

How the data were processed

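The authors deposited unnormalized read counts (whole numbers) by gene for 3 control and 3 GPT1 libraries. Reads were aligned with HISAT2 2.0 to GRCh38, per the submitters' processing notes. How reads were counted (tool, annotation, strand) was not given in the sources used here. A table pairing Ensembl gene identifiers with symbols named 60463 of 60664 identifiers. Lengths, coordinates and overlaps come from GENCODE 29, and start sequences and snoRNA positions from RefSeq.

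The test was that of edgeR 4.0.16 in R 4.3.3: filterByExpr (17638 genes), TMM scaling, glmQLFit and glmQLFTest, two-sided, 0.05 after Benjamini-Hochberg adjustment. CPM uses TMM-scaled library sizes. The SE of a log2 fold change was derived as its absolute value over the square root of the test's F statistic. It is an approximation, least apt at low counts. The length and GC correction subtracts a smooth trend of each library (mgcv 1.9.3), fitted without regard to group. The steps were tested on simulated data. Of the changes put in, 43.3% of 1.5-fold, 75.8% of 2-fold and 96.9% of 4-fold ones were recovered. Of the genes given no change, 0.0641% were called. With a length trend between groups also put in, of a size not taken from these data, 28.1% of those genes were called uncorrected. After correction 0.0754% were. DESeq2 1.42.0, limma 3.58.1, other scalings and filters, a replicate block and libraries left out were the alternatives.

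Replicate pairs differed far beyond sampling noise, so all 6 libraries were counted. No source says that they came from separate cultures, so p-values measure only the spread between these samples. The members and lists were chosen with earlier results of these data known. All tested members are named, with up to 4 genes of smallest adjusted p per other list; neighbouring genes were named by position.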

Additional observations from a re-analysis of the deposited data

How the results depend on the processing

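Over 20 alternatives SNHG1, SNHG10 and SNHG30 kept their direction and passed, as did SNHG18 in the 19 that tested it. Hosts called higher numbered 5, but 2 against a 1.2-fold change or at an adjusted p of 0.01, 3 with the replicate block (DANCR 0.0609 and SNHG6 0.0611 lost), 8 without control replicate 3 and GPT1 replicate 2, and 2 to 7 leaving out single libraries. Hosts lower numbered 2, and 1 with a filter of 1 CPM in 3 libraries, where SNHG18 was not tested. Long RNAs lower numbered 1, but 3 without a filter, 3 without control replicate 3 and GPT1 replicate 2, 0 at 0.01, and 0 to 3 leaving out single libraries. All genes higher and lower numbered 1858 and 2572, with 527 and 897 against a 1.2-fold change, 491 and 681 at 0.01, and 613 to 1970 and 830 to 2937 leaving out single libraries; 3486 were higher after the length and GC correction and 2954 when the block was added. The replicate numbers did not pair the samples (same-number correlations 0.14, -0.28 and -0.08); the block changed no other call of a member. Signs changed 25 times, in 9 members that had not passed: SNHG16 (0.0002 with upper quartile scaling), SNHG4 (-0.0042 with total counts), and with the length and GC correction, alone and with the block, SNHG16 (0.0394, 0.0398), SNHG11 (-0.0374, -0.0358), SNHG17 (-0.0235, -0.0236), SNHG8 (-0.0234, -0.0292) and NEAT1 (0.0181, 0.0038). Leaving out both named libraries gave SNHG16 0.0183, SNHG4 -0.0694 and SNHG32 0.0093. Leaving out single libraries gave SNHG16 0.0018 and 0.0553 (lowest -0.0879), SNHG11 -0.0469 and -0.0400 (highest 0.1378), SNHG4 -0.0876 and -0.0028 (highest 0.0642), SNHG26 -0.0809 and -0.0229 (highest 0.1741), SNHG32 0.0107 (lowest -0.1764) and EPB41L4A-AS1 0.0056 (lowest -0.1757). The cause was not tested. Where an arm was left with fewer libraries, edgeR's pooled spread was used. Depth limits SNHG18 and the 6 untested hosts.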

Other observations

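LINC00888, which RefSeq lists as the host gene SNHG33 but which has no SNHG symbol in the name table used here, was at 12.7 ± 0.778 CPM in the control libraries and 13.96 ± 0.277 in the GPT1 libraries (SD, n = 3 each). Every GPT1 library lay above every control library, and the difference did not pass (log2 fold change 0.14 ± 0.12, edgeR adjusted p = 0.380). MYO5B, a myosin motor gene that overlaps the untested host SNHG22 on the other strand, was lower in the GPT1 libraries (29.8 ± 2.78 and 18.5 ± 0.306 CPM, log2 fold change -0.69 ± 0.11, adjusted p = 0.0028). UBE3A, the ubiquitin ligase gene that lies opposite SNHG14, was also lower (51.9 ± 8.87 and 36.4 ± 5.88 CPM, -0.51 ± 0.15, adjusted p = 0.0302), and stood at -0.07 after correction for length and GC content.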
